A study of Mus musculus with 2 samples.

Results

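Interferon-stimulated genes and interferon receptors were examined in mouse regulatory T cells, as a list of 44 genes matched by their GENCODE M21 gene identifiers among 55536 annotated genes. All 44 were found in the tables of both libraries, 43 of them annotated as protein coding and Mx2 as a polymorphic pseudogene. Regulatory T cells, a Foxp3-dependent branch of the CD4 T cells, hold other immune cells in check. PolyA plus RNA-seq was done on primary cells from 1 male mouse, an adult aged 4 months, whose strain is given as Foxp3CreERT2 x Rosa26YFP. That strain joins a tamoxifen-inducible Cre recombinase at the Foxp3 locus with a YFP reporter at Rosa26. The labels name no agent, no infection and no sort or gate, and say of the cells' source that they arose from a haematopoietic cell of the bone marrow. Both libraries were made from the same biological sample as technical replicates, so there is 1 group of 2 libraries and no comparison between conditions.

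Interferons are cytokines that put cells into an antiviral state. Type I interferons bind a receptor of the Ifnar1 and Ifnar2 chains and type II interferon, the product of Ifng, binds one of the Ifngr1 and Ifngr2 chains. The receptors activate Janus kinases, which phosphorylate STAT proteins. STAT proteins joined with IRF9 bind the interferon-stimulated response element (ISRE), and STAT dimers bind the gamma-activated site (GAS). The genes they switch on block viral replication, sense foreign nucleic acid, attack vacuoles that hold microbes, or load peptides onto MHC class I molecules. Many are also transcribed at a low, tonic level without infection.

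The depth on genes was 15821875 estimated counts in library 1 and 16153671 in library 2. Levels are given in TPM, which scales each library to the same total and each gene to its transcript length, and ± is the SD of both libraries (n = 2), which is technical only. Where a gene had 0 counts, as many as 3 counts remain possible, which is 0.190 CPM (counts scaled to the library total) in the first library and 0.186 CPM in the second. This limit, like every interval here, covers counting error only. The markers listed for regulatory T cells were Foxp3, Il2ra, Ctla4, Ikzf2 and Tnfrsf18, and also Cd4, Cd3e, Cd3g and Trac. The last 4 do not set regulatory T cells apart from other CD4 T cells, for which no list was made. Of these 9 markers, including Foxp3 at 43.2 and 36.2 TPM, 9 reached 1 TPM in both libraries. Of 6 B cell markers 2 did, with a summed level of 36.5 and 37.2 TPM, of which Cd79b made 33.2 and 33.3 TPM. Of 9 myeloid and conventional dendritic cell markers 3 did, with 8.91 and 11.9 TPM in all. These were Fcer1g (1.96 and 2.59 TPM), Tyrobp (2.35 and 4.77 TPM) and Zbtb46 (2.69 and 3.19 TPM), and Itgax had 0 counts in both libraries. Of 8 plasmacytoid dendritic cell markers 3 did, with 62.1 and 55.6 TPM in all. These were Pacsin1 (35.5 and 27.6 TPM), Ccr9 (20.7 and 20.8 TPM) and Tcf4 (5.14 and 4.67 TPM), while Siglech was at 0.42 and 1.01 TPM and Cd300c had 0 counts. Of 8 CD8 T and NK cell markers 5 did, with 25.1 and 27.1 TPM in all, and of 3 erythroid markers 0 did. The part of other cells in the levels below was not tested. In a bulk sample, fewer cells that express a gene and less RNA per cell cannot be told apart.

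Promoter sequences were searched for the elements that interferon-activated factors bind. RefSeq start sites on GRCm38.p6 gave a window of 300 bases, 250 before the start and 50 after it, for 30 of the 44 genes, in 35 windows. In 27 of the 35 windows, bases just after the start occurred in a GENCODE M21 transcript of the gene. No entry was matched for Dhx58, Gbp4, Gbp6, Ifi27l2a, Iigp1, Mx1, Mx2, Oas2, Parp14, Parp9, Rtp4, Tap2, Usp18 and Zbp1. The letters searched for the ISRE were GAAA, any 2 bases and GAAA again, on both strands. The motif was present in 17 of the 30 genes, against 3.99% of the 27025 genes with a window and 3.44% of the 32851 windows. With a C required after the second GAAA it was present in 13 of the 30, against 0.944% of all genes. A match is a description of the letters and not a shown binding site, and a window without one says only that these letters are not in it.

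The promoter of Isg15, which encodes a ubiquitin-like protein that is joined to other proteins in the interferon response, had 3 overlapping copies, the most among the 30 genes. The promoter of Igtp, which encodes an immunity-related GTPase, carried 1 copy and belonged to a gene with a far higher transcript level. Their 250 bases before the start are printed 5′ to 3′ on the strand of the gene, for Isg15 at chr4:156200819-156201068 (minus strand) and for Igtp at chr11:58199306-58199555 (plus strand). Capitals mark every base that lies in a match.
Isg15 upstream: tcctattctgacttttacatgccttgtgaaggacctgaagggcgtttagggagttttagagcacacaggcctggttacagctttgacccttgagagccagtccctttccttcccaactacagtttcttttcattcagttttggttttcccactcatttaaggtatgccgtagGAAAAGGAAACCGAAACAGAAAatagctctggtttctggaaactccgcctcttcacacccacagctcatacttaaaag
Igtp upstream: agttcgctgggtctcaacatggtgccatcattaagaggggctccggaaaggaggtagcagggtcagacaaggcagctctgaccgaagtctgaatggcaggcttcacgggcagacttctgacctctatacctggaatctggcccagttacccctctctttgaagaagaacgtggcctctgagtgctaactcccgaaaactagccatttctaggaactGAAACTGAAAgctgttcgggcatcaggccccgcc

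In the 17 genes the matches merged into 20 stretches, 8 on the strand of the gene and 12 on the opposite strand, and every stretch lay within 200 bases of the start. In 15 genes a match lay wholly before the start, and in Ddx58 and Ifih1 it lay after it. Among windows with a match, those of Bst2, Gbp7, Irgm2 and 1 of Trim30a had bases after the start absent from the gene's M21 transcripts. Overlapping copies stood in 5 genes, Isg15, Bst2, Gbp3, Irgm1 and Oas1a. Runs of 30 bases around the matches of 11 genes are printed to set the families side by side, each 5′ to 3′ on the strand that reads the GAAA letters and with the match in capitals. On GRCm38.p6 the run of Isg15 lies at chr4:156200871-156200900 (minus), those of Ifit1 at chr19:34640794-34640823 (minus) and chr19:34640775-34640804 (minus), and those of Ifit3 at chr19:34583397-34583426 (minus) and chr19:34583363-34583392 (minus). The Gbp2 run lies at chr3:142620594-142620623 (minus), that of Gbp3 at chr3:142559992-142560021 (minus) and that of Gbp7 at chr3:142530273-142530302 (minus). The Irgm1 run lies at chr11:48871428-48871457 (minus), that of Oas1a at chr5:120907523-120907552 (minus) and that of Rsad2 at chr12:26456553-26456582 (plus). The Igtp run (chr11:58199512-58199541, plus) and the Irgm2 run (chr11:58214903-58214932, plus) had 29 of 30 bases in common.
Isg15: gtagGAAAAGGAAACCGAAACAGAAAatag
Ifit1 nearer match: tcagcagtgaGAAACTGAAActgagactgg
Ifit1 farther match: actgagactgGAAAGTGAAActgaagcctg
Ifit3 nearer match: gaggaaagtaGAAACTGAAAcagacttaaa
Ifit3 farther match: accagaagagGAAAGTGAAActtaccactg
Gbp2: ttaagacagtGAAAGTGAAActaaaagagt
Gbp3: gatctggGAAATAGAAACTGAAActgtgtc
Gbp7: atggagaactGAAACTGAAActgcacacac
Irgm1: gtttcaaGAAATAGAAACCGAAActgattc
Igtp: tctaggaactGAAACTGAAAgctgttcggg
Irgm2: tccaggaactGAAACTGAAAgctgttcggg
Oas1a: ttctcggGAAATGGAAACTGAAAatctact
Rsad2: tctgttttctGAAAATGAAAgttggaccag

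The GAS letters TTCNNNGAA, searched on both strands, were in 11 of the 30 genes, against 9.55% of all genes, and 6 of these also held the ISRE letters. Among the receptors, Ifnar1 and Ifnar2 held the GAS letters, and the ISRE letters were in 0 of the 4 receptor genes. Levels are given for the genes with and without the ISRE letters. The median level was 45.9 TPM over the 17 genes with the ISRE letters, from 2.72 for Rsad2 to 329 for Igtp. It was 76.4 TPM over the 13 genes with a window but no match, and 80.2 TPM over the 9 of them that are not receptors. These medians are descriptions without a test.

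All 44 genes reached 1 TPM in both libraries, against 24.3% of all genes and 46.5% of the 22028 protein-coding genes. At 10 TPM or more there were 38, against 29.9% of protein-coding genes, and at 100 TPM or more 14, against 5.27%. The median of the 44 mean levels was 63.7 TPM (63.8 in library 1 and 61.0 in library 2), beside 18.5 TPM for the 10251 protein-coding genes expressed at 1 TPM. These shares describe the list, and no test was made of them. Within the list the levels spread widely: the highest was 625 times the lowest in library 1 and 987 times in library 2. Together the 44 genes held 0.681% and 0.672% of the estimated counts and 0.490% and 0.484% of the TPM. Ifi27l2a alone held 24.1% and 24.7% of their summed TPM, and its lead by TPM was absent in the smaller gene tables described below.

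**Figure D1:**
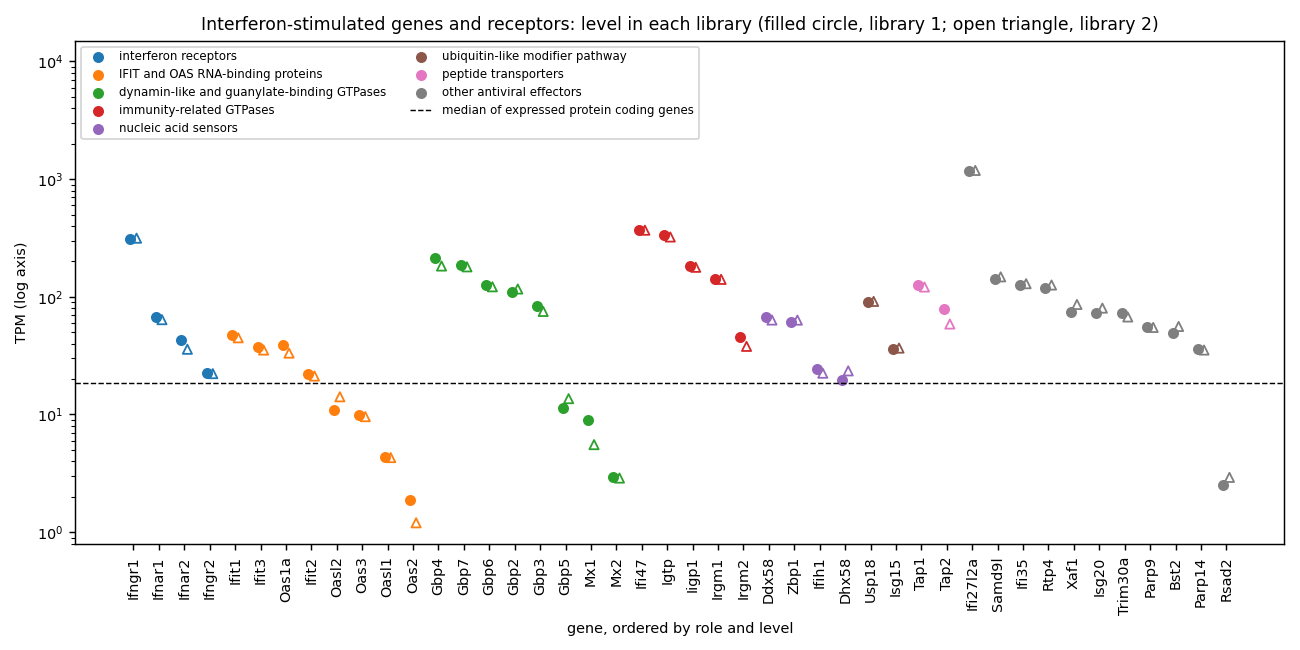
Level of each of the 44 genes in TPM on a log axis, grouped by role and ordered by level, with a filled circle for library 1 and an open triangle for library 2. The dashed line is the median of expressed protein-coding genes, 18.5 TPM, and the points of most genes nearly coincide between the libraries.

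The receptors for both kinds of interferon were expressed, and their chains were unequal. Ifngr1, the ligand-binding chain of the type II receptor (ENSMUSG00000020009.13, mm10 chr10:19591949-19610229, plus strand), stood at 312 TPM in library 1 and 315 in library 2, from 7728 and 8130.0 counts. Ifngr2, its signalling partner chain (ENSMUSG00000022965.8, chr16:91547072-91565623), stood at 22.4 and 22.2 TPM. The mean level of Ifngr1 was 14.1 times that of Ifngr2. Ifnar1 (chr16:91485238-91507441), a chain of the type I receptor, was at 66.7 and 63.9 TPM, and Ifnar2 (chr16:91372783-91405589), the chain with the higher affinity for ligand, at 42.5 and 35.8 TPM. The mean level of Ifnar1 was 1.67 times that of Ifnar2. These ratios cover all transcripts. Coding transcripts held 68.7% and 68.1% of the TPM of Ifnar1 and 99.99% and 100% of that of Ifnar2. For Ifngr1 they held 90.1% and 85.9%, and for Ifngr2 60.9% and 47.9%. By count per kilobase of the longest coding transcript, Ifngr1 was 19.7 times Ifngr2 in library 1. The order from Ifngr1 through Ifnar1 and Ifnar2 to Ifngr2 held in both libraries without overlap. Between Ifnar2 and Ifnar1 on chromosome 16 lies Il10rb, a chain shared by the receptors for interleukin 10 and type III interferon, at 94.5 and 97.3 TPM.

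The RNA-binding antiviral proteins of the IFIT and OAS families had the lowest median of the 8 roles, 17.1 TPM over 8 genes. Ifit1, which binds viral RNA with a foreign cap (ENSMUSG00000034459.8, chr19:34640871-34650009), was at 47.0 and 44.8 TPM, Ifit3 at 37.6 and 35.3 TPM and Ifit2 at 22.1 and 21.2 TPM. Within the Ifit cluster of 6 genes on chromosome 19, Ifit1bl1, a related gene outside the list, was highest at 85.9 and 86.3 TPM. Oas1a, an oligoadenylate synthetase that makes the messenger which activates RNase L, was at 39.1 and 33.2 TPM. Oasl2 was at 10.97 and 14.1 TPM, Oas3 at 9.94 and 9.58 TPM and Oasl1 at 4.31 and 4.30 TPM. Oas2 (ENSMUSG00000032690.16, chr5:120730333-120749853, minus strand) was the lowest of the 44 at 1.87 and 1.20 TPM, from 83 and 52 counts. The libraries' ranges of Oas1a and Ifit3 overlapped, so their order is not resolved. Of the 11 protein-coding Oas genes on chromosome 5, Oas1a was highest, and Oas1e, Oas1f and Oas1h had 0 counts in both libraries. Of 50-base windows in Oas1a transcripts, 57.6% also occur in another gene, mainly Oas1g, and 51.2% of those of Ifit3 do, mainly in Ifit3b, so the division of reads within these pairs is uncertain.

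Guanylate-binding proteins, which coat the vacuoles of intracellular microbes, were abundant, whereas the dynamin-like Mx genes were not. Gbp4 (ENSMUSG00000079363.7, chr5:105115767-105139586, minus strand) was at 212 and 183 TPM, Gbp7 (chr3:142530342-142550149) at 187 and 179.65 TPM, Gbp6 at 126 and 122 TPM and Gbp2 at 110.4 and 116 TPM. Gbp3 followed at 83.8 and 75.1 TPM, and Gbp5, which promotes inflammasome assembly, was the lowest of the 6 at 11.3 and 13.6 TPM. The ranges of Gbp4 and Gbp7 overlapped. In the chromosome 3 cluster Gbp5 lies next to Gbp7, and their levels were at opposite ends of that cluster. Mx1, which blocks influenza viruses in mice with an intact copy (chr16:97447035-97462907), was at 9.01 and 5.54 TPM and Mx2 at 2.96 and 2.88 TPM. Shared 50-base windows were 70.7% for Gbp6, mainly with the predicted gene Gm43302, and Gbp4 overlaps Gbp8 (96.9 and 87.9 TPM) and Gbp9 (85.7 and 73.5 TPM) on the same strand. The levels of Gbp6 and Gbp4 are uncertain to that extent.

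**Figure D2:**
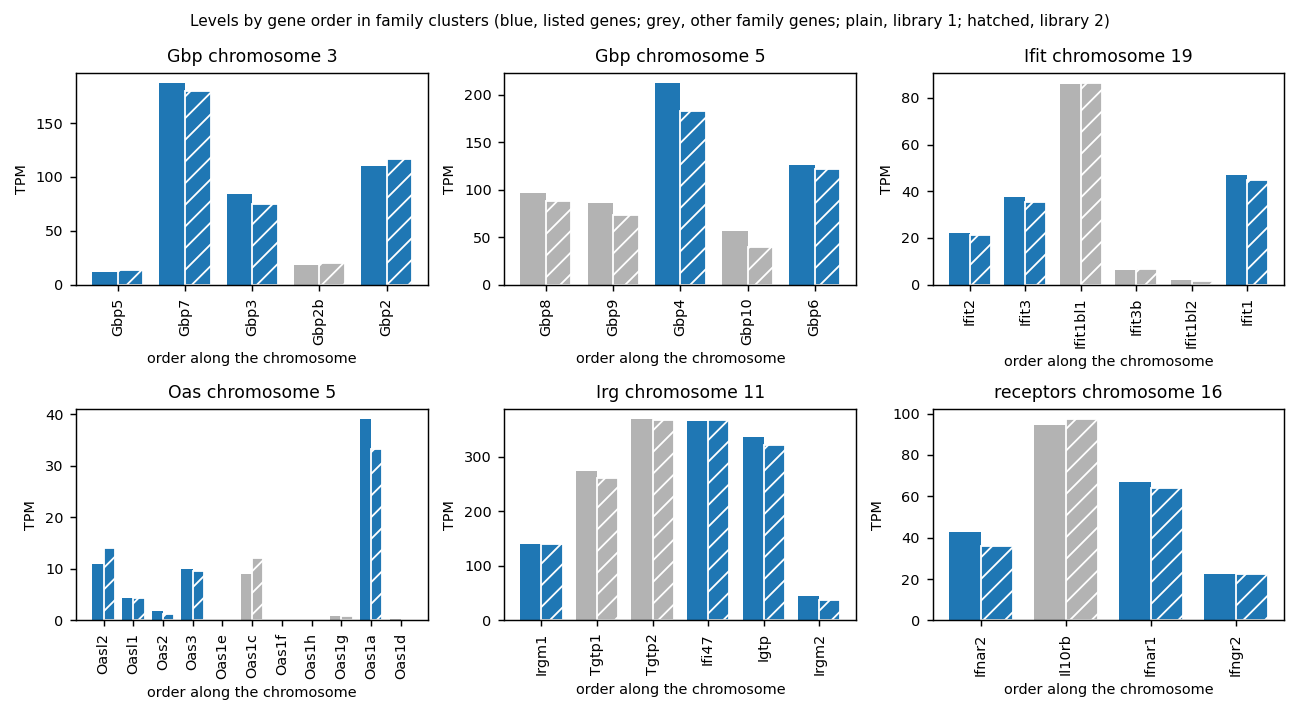
Level in TPM (linear axes from 0) of the protein-coding genes of the Gbp, Ifit, Oas and Irg families and of the receptor cluster, in order along the chromosome, with a plain bar for library 1 and a hatched bar for library 2, listed genes in blue and other genes in grey. Ifit1bl1 at 86.1 TPM stands above the 3 listed Ifit genes, and Gbp5 at 12.5 TPM lies beside Gbp7 at 183 TPM.

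Immunity-related GTPases, which act on microbe-containing vacuoles, had the highest median of the 8 roles, 180.3 TPM over 5 genes. Ifi47 (ENSMUSG00000078920.3, chr11:49076587-49096974, plus strand) was at 367 and 368 TPM, Igtp (ENSMUSG00000078853.8, chr11:58199556-58207591, plus strand) at 336 and 322 TPM and Iigp1 at 182 and 178 TPM. Irgm1, which regulates the other GTPases of the family, was at 141 and 140.6 TPM and Irgm2 at 45.3 and 37.9 TPM. Their order was the same in both libraries. Igtp and Irgm2, whose printed promoter runs had 29 of 30 bases in common, had mean levels of 329 and 41.6 TPM. The bases just after the start of the Irgm2 window were not found in its GENCODE M21 transcripts, unlike those of Igtp. The genes Igtp and Irgm2 overlap on the same strand, and 11.8% of the 50-base windows of Igtp are shared, mainly with Irgm2. The division of reads between these 2 genes is therefore uncertain. The neighbours Tgtp1 (275 and 262 TPM) and Tgtp2 (369 and 368 TPM), are GTPases of the same family outside the list. Of their 50-base windows 81.2% and 86.6% are shared, mainly with each other, so the division of reads between them is uncertain.

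Sensors of foreign nucleic acid were present at moderate levels. Ddx58 encodes RIG-I, a sensor of viral RNA, and was at 66.9 and 63.5 TPM, while Zbp1, a sensor of Z-form nucleic acid that can start cell death, was at 60.9 and 63.4 TPM. Ifih1 encodes MDA5, a sensor of long double-stranded RNA, and was at 24.3 and 22.4 TPM, while Dhx58 encodes LGP2, which modulates the other 2 RNA sensors, and was at 19.6 and 23.5 TPM. The ranges of Ifih1 and Dhx58 overlapped. The ISG15 system was unequal as well: Isg15 (ENSMUSG00000035692.6, chr4:156199424-156200818, minus strand) stood at 35.9 and 36.6 TPM, and Usp18, the protease that removes it and also restrains the type I receptor, at 89.9 and 91.4 TPM. Tap1 and Tap2 encode the pump that brings peptides to MHC class I. Tap1 (chr17:34187553-34197225) was at 127 and 121 TPM, and Tap2 (chr17:34203527-34216321) at 79.3 and 58.7 TPM, with an SD of 14.6. Tap1 overlaps the proteasome gene Psmb9 (198 and 209 TPM) on the opposite strand, and whether counting used strand was not given in the sources used here.

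Among the other effectors Ifi27l2a, a small membrane protein of the ISG12 family (ENSMUSG00000079017.3, chr12:103442167-103443680, minus strand), was the most abundant gene of the 44, at 1169.6 and 1185 TPM. Its mean was 3.20 times that of Ifi47, the next gene by TPM. In the smaller gene tables this lead was absent: Ifi27l2a had 593 and 606 counts and Ifi47 2273 and 2316, which per kilobase of the longest coding transcript is a ratio of 0.999 and 1.00. Samd9l, which restrains translation in infected cells, was at 141 and 148 TPM, Ifi35, a partner of Nmi, at 126 and 129 TPM and Rtp4, a receptor transporter protein, at 119 and 126 TPM. Xaf1, a pro-apoptotic partner of XIAP, was at 74.3 and 86.0 TPM, Isg20, an RNA exonuclease, at 72.6 and 80.1 TPM and Trim30a, a regulator of Toll-like receptor signalling, at 72.2 and 67.4 TPM. Parp9 and Parp14, which act in ADP-ribosylation, were at 55.4 and 54.9 TPM and at 36.0 and 35.3 TPM. Bst2, which encodes tetherin and holds budding virus at the membrane, was at 48.8 and 56.0 TPM. Rsad2, which encodes the antiviral enzyme viperin (chr12:26442746-26456452, minus strand), was among the lowest genes at 2.52 and 2.92 TPM, from 117 and 135 counts. Parp9 shares its locus with Dtx3l (52.8 and 45.6 TPM) and with the antisense gene Gm15564 (1024 and 894 TPM), both on the opposite strand.

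Genes around these in the pathway split by role. Of 19 type I and type II interferon genes, 1 reached 1 TPM in both libraries, Ifng at 4.22 and 4.08 TPM from 60.9 and 61.6 counts, and 13 had 0 counts in both. Of the 4 type III genes, Ifnl2, Ifnl3 and the receptor chain Ifnlr1 had 0 counts in both libraries. All 9 kinases, STATs and IRFs were expressed, with a median of 127 TPM. Jak1 was at 318 and 275 TPM and Irf1 at 237 and 230.3 TPM, and Jak2 was lowest at 18.5 and 14.2 TPM. All 9 genes of a list headed by inhibitors of the pathway were expressed, with a median of 93.0 TPM. That count and median include Uba7, the ISG15-activating enzyme and so not an inhibitor, and no median was computed without it. The highest of the list were Uba7 at 156 and 136 TPM, the phosphatase gene Ptpn6 at 139.9 and 139 TPM, and Pias1 at 122 and 119 TPM. The lowest was Socs1, a feedback inhibitor of JAK signalling, at 5.09 and 2.93 TPM.

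Of 13 sensors and adaptors outside the list of 44, 11 were expressed, with a median of 21.3 TPM. Tmem173, which encodes STING, the adaptor of cytosolic DNA sensing, was highest at 335 and 356 TPM, and Tlr9 had 0 counts in both libraries. Of 71 further interferon-stimulated genes, 57 were expressed, of which 49 reached 10 TPM and 20 reached 100 TPM. Their median was 48.0 TPM over all 71. Ly6e, a membrane protein that limits the entry of some viruses, was highest at 2194 and 2246 TPM, followed by Sp100, a nuclear body component, at 776 and 765 TPM and Slfn2, a Schlafen gene, at 604 and 620.1 TPM.

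**Figure D3:**
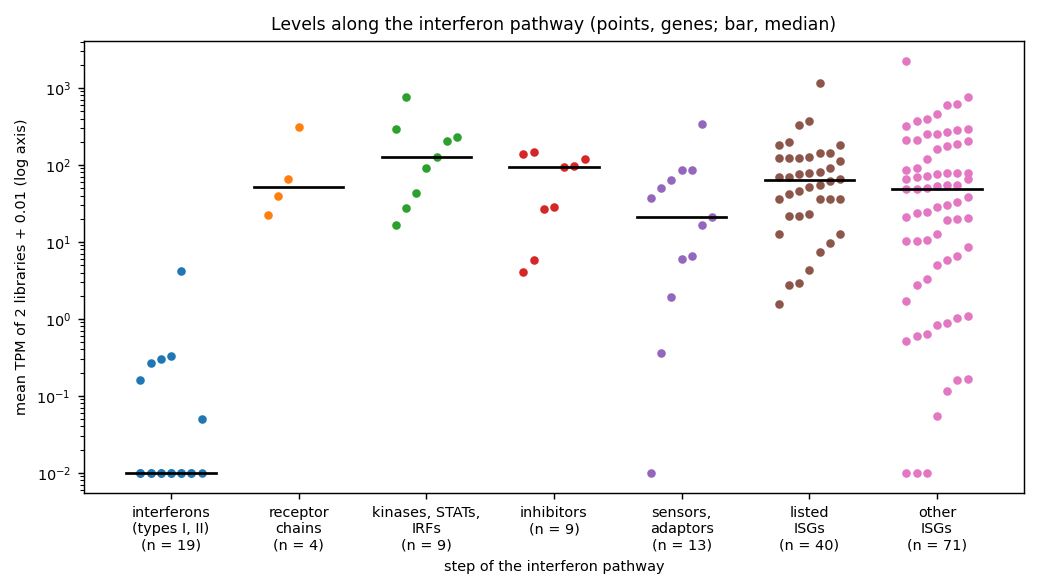
Mean TPM of both libraries plus 0.01 on a log axis for genes of the interferon pathway by step, with 1 point a gene and a bar at the median. Of the 19 interferon genes Ifng is highest at 4.15 TPM, while the kinases, STATs and IRFs have a median of 127 TPM. The step of inhibitors includes Uba7, which is not an inhibitor.

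How many of the genes differed between the libraries depended on the measure. By estimated counts scaled to library size, 1 of the 44 genes differed by 1.5-fold or more, Oas2, at a log2 ratio of library 2 over library 1 of -0.70 (95% exact interval -1.23 to -0.19). Among the 17405 genes whose counts summed to at least 10, 21.8% differed that much either way, 11.3% towards library 2 and 10.6% towards library 1. The counts of all 44 genes summed to at least 100, and among the 11166 such genes 5.07% passed. By TPM, 2 of the 44 genes differed by 1.5-fold or more, Oas2 and Mx1 (9.01 and 5.54 TPM), against 22.6% of the 17181 genes compared that way. That share includes genes with summed counts down to 10, and none was computed by TPM for genes summing to at least 100. The median size of the log2 ratio was 0.10 over the 44 genes and 0.14 over those 11166. The interval excluded 0 with library 2 above library 1 in 8 of the 44 genes and below it in 13 of the 44. Among the 11166 genes it excluded 0 in 40.2%, counting both directions. These intervals compare 2 libraries of 1 sample and not conditions. After Oas2 the widest differences were those of Mx1, with 205 and 153 counts and a log2 ratio of -0.45 (-0.76 to -0.14), and of Tap2, with 2039 and 1632 counts and a log2 ratio of -0.35 (-0.44 to -0.26).

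**Figure D4:**
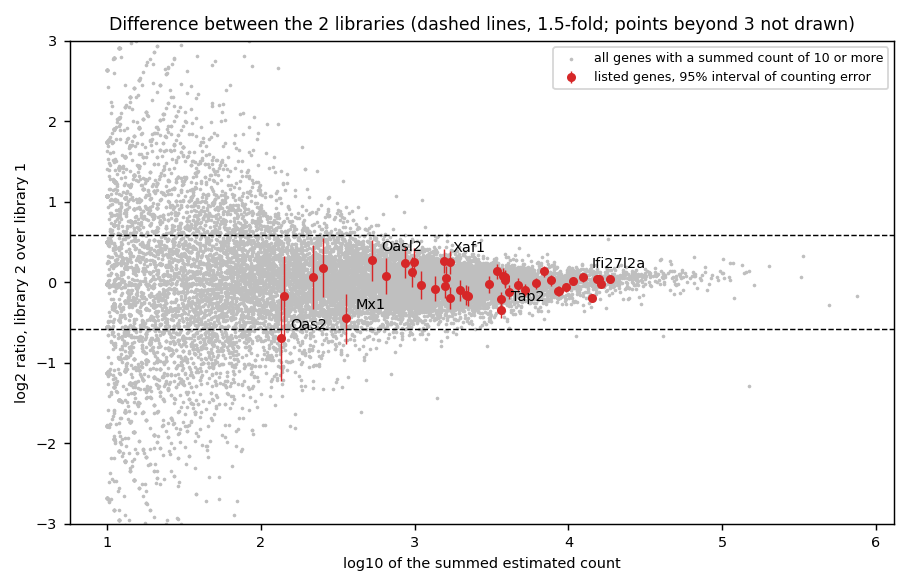
Log2 ratio of library 2 over library 1 against the summed count of both libraries on a log axis, for the 44 genes over all genes whose counts summed to at least 10. On this scale of TMM-scaled estimated counts Oas2 at -0.70 is past 1.5-fold and the other 43 genes are not, while by TPM Mx1 is past it too.

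Which transcripts carried these levels varied between the genes. Of the 44 genes, 5 have 1 listed transcript. Among the other 39 genes the same transcript led in both libraries in 34, and in 6 of these it held 90% or more of the gene's TPM in both. A transcript not annotated as protein coding led in both libraries in 4 genes. These were Tap2, with a retained-intron transcript at 70.0% and 72.7%, Gbp4, with a transcript annotated for nonsense-mediated decay at 54.8% and 54.3%, Gbp5, with a processed transcript at 36.9% and 41.7%, and Mx1, with a nonsense-mediated decay transcript at 36.9% and 56.1%. By posterior mean share, a second estimate by the authors, the same 4 transcripts led, with that of Mx1 at 26.4% and 33.1%. In 17 genes the protein-coding transcripts held under 80% of the TPM in both libraries. The leading transcript differed between the libraries in Gbp7, Irgm1, Mx2, Oasl1 and Oasl2. In Oasl1 1 coding transcript held 92.9% in library 1 and another held 91.7% in library 2, with the gene at 4.31 and 4.30 TPM. By posterior mean share the first held 36.5% in library 1 and 20.9% in library 2, and the other 26.3% and 36.3%. The size of that switch is therefore uncertain. By share of estimated counts rather than TPM, Gbp7 and Irgm1 kept 1 leading transcript and Gbp5 and Isg20 did not. Gbp5 was then led by a retained-intron transcript in library 1 (27.2%) and by a coding transcript in library 2 (32.6%). Shares of transcripts are model estimates by the authors.

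**Figure D5:**
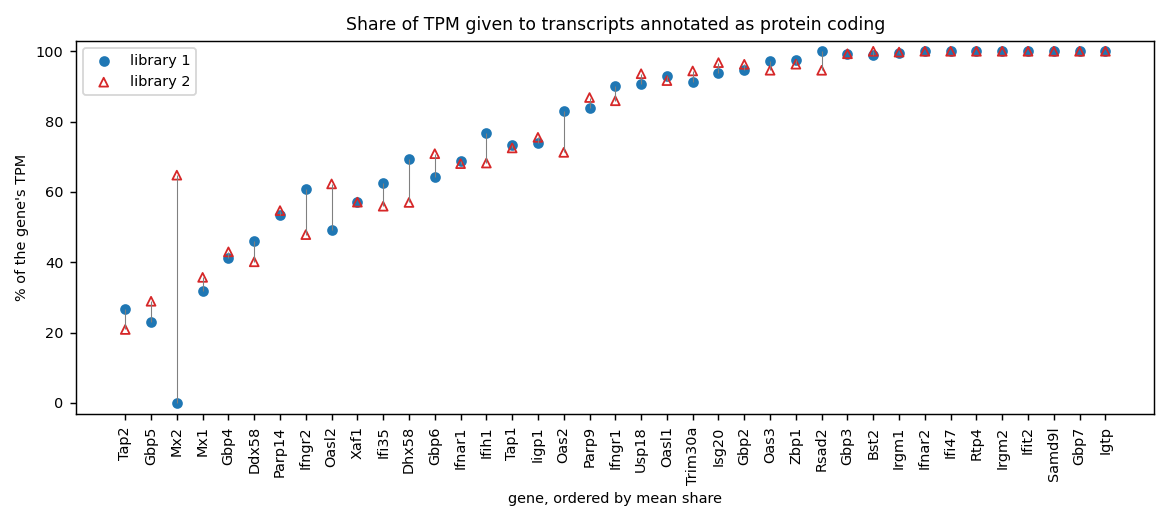
Share of the TPM of a gene, in percent, given to transcripts annotated as protein coding, for the 39 genes with more than 1 transcript, with a circle for library 1 and a triangle for library 2. Tap2 is at 26.8% and 20.9%, and 17 genes lie under 80% in both libraries.

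TPM depends on the length given to a gene, so each count was also divided by the length of the longest protein-coding transcript. Across the 44 genes the order by this measure and by TPM had a Spearman correlation of 0.966 in library 1 and 0.956 in library 2, a description across genes. Xaf1 moved most, from rank 16 to rank 31, with its leading transcript of 651 bases. Samd9l moved from rank 8 to rank 17, with a 429-base transcript holding 56.5% and 63.6% of its TPM. In the smaller gene tables, whose counts on the GENCODE M4 annotation come from a separate alignment, 42 of the 44 genes were listed, with the exceptions of Gbp5 and Gbp6. Their order by count had a Spearman correlation with the estimated counts of 0.924 and 0.934. Ifi27l2a had 9.85 and 9.47 counts there for each 100 estimated counts, against a median of 47.8 and 45.8 over the 42 genes.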

How the data were processed

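PolyA plus RNA-seq was measured in 2 technical libraries of 1 mouse, mapped to 1 group by their labels, with 15821875 and 16153671 estimated counts on genes. Per the deposited readme texts, the larger tables use mm10 with GENCODE M21, and no aligner or version is named: not given in the sources used here. The expected counts (estimated counts, unscaled), TPM values (scaled over all features), FPKM values and scores for posterior spread were deposited by the authors, as was the percent of TPM given to each transcript. The deposited smaller tables hold whole-number counts on GENCODE M4, with no counting tool or strand setting named. Features that matched no M21 gene held 0.176% and 0.169% of the counts and were left out.

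Members and lists were chosen with earlier results of these data known. All 44 genes are named, and so are the 9 markers of regulatory T cells. From the other lists the 3 highest, the lowest and genes at 0 counts are named. Neighbours that share a locus or cluster with a member are named too, chosen after their values were seen. Some genes of these lists are not reported here. Expressed means at least 1 TPM in each library. Log2 ratios used TMM library sizes (edgeR 4.0.16, R 4.3.3) and a prior count of 0.5, with a fold of 1.5 and a summed count of 10 as limits. With 1 group no p-value was computed. The 95% exact Clopper-Pearson interval (scipy 1.17.1) of each ratio was tried on simulated counts that held counting error only. The interval assumes the same, so the simulation cannot show how it holds for other differences between libraries. Alternatives were DESeq2 1.42.0 size factors, other filters, folds, thresholds, scales, tables and motifs, and leaving out each library. Shared windows are 50-base stretches that also occur in transcripts of another gene. Promoter sequences are from RefSeq on GRCm38.p6.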

Additional observations from a re-analysis of the deposited data

How the results depend on the processing

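No paired analysis was possible because all samples form 1 group. The number of the 44 genes expressed was 44 at 0.5 TPM, 40 at 5 TPM, 38 at 10 TPM and 43 by FPKM, and 42 of the 42 genes in the smaller tables reached 1 CPM. The members' median level of 63.7 TPM was 83.1 when TPM was rescaled to protein-coding genes outside the mitochondrial genome, 57.6 by posterior mean TPM, 50.6 by FPKM and 61.0 to 63.8 with each library left out. Count per kilobase of the longest coding transcript and library total, an alternative chosen after seeing the data, gave 33.6 on its own scale. Oas2 was the 1 gene past 1.5-fold under total counts (21.8% of all genes tested), DESeq2 size factors (21.9%) and a prior count of 2 (20.0%). Oas2 was also the 1 gene past it with a summed count of at least 1 (46.7% of 28967 genes) or at least 50 (8.98%). By TPM, also chosen after seeing the data, the number was 2, Oas2 and Mx1 (22.6%). At 2-fold the number was 0, against 11.5% of genes tested, and in the smaller tables it was 1, Rsad2 in place of Oas2, against 14.2%. The estimated counts of all 44 genes summed to at least 100, while these shares also cover genes with fewer counts. No share matched on counts was computed for these settings. The number of genes with the same leading transcript was 39 by TPM share, count share and posterior mean share. By count share the 5 exceptions were Gbp5, Isg20, Mx2, Oasl1 and Oasl2, and by the other shares Gbp7, Irgm1, Mx2, Oasl1 and Oasl2. The posterior mean shares in Oasl1 were less extreme, as given above. The ratio of Ifi27l2a to Ifi47 fell from 3.20 by TPM to 1.00 by count per kilobase in the smaller tables, an alternative chosen after seeing the data, and the cause was not tested. The ISRE count of 17 became 13 with a final C and 18 with the looser GAAANNGAA (9.76% of all genes, against 3.99% and 0.944%), and the GAS letters gave 11. Low counts limit Oas2, Mx2, Rsad2 and Oasl1, and both libraries come from 1 mouse, so variation between animals was not measured.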
